A study of Mus musculus with 20 samples.

Results

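The growth hormone, STAT5 and IGF axis of the liver was followed here through 10 genes, *Ghr*, *Stat5b*, *Socs2*, *Cish*, *Bcl6*, *Igf1*, *Igfals*, *Igfbp3*, *Mup20* and *Mup21*. They were taken by symbol from the count files and are 10 of the 22298 genes listed there. The 20 libraries, 1 per mouse and 5 per group, were made from liver RNA of male mice homozygous for *Lepr* db, a mutation of the leptin receptor that makes db/db mice obese and diabetic. At 5 weeks of age each mouse was injected in the tail vein with an adeno-associated virus of serotype 8 that encoded a non-targeting shRNA (Vec) or shRNAs against PPARγ (shRNA), a nuclear receptor that drives lipid storage genes. The mice then received vehicle or benzbromarone (BBR), a uricosuric drug, at 25 mg per kg once daily for 4 weeks, and tissue was taken after 6 h of fasting. The groups are named Vec (control virus and vehicle), Vec+BBR (control virus and BBR), shRNA (knockdown virus and vehicle) and shRNA+BBR (knockdown virus and BBR). All 20 mice thus carried both the db/db genotype and a virus, and no lean mouse and no mouse without virus was analysed here.

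Growth hormone from the pituitary binds its receptor on hepatocytes, and the kinase JAK2 then phosphorylates STAT5B, which enters the nucleus and switches on *Igf1*, *Igfals*, *Socs2* and *Cish*. SOCS2 and CISH act back on the receptor and end the signal, and BCL6 is a repressor that binds many of the same DNA sites as STAT5. Male mice secrete growth hormone in pulses, and this pattern sets the male-biased genes of mouse liver, the major urinary protein (*Mup*) genes among them. Hormone levels and STAT5 phosphorylation were not analysed here, and each library gives the RNA at a single time in 1 mouse.

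Total counts per library ran from 17432904 to 25024099, and mitochondrial genes took 9.14% to 16.2% of them, with a median of 9.66% in Vec and 12.7% in shRNA+BBR. In the Vec libraries *Pparg*, the targeted gene, had 24.8 ± 8.63 counts per 1000000 (CPM; SD, n = 5), against 5.73 ± 1.53 in shRNA, with adjusted p = 4.47e-05 by edgeR. With BBR it had 31.8 ± 4.57 CPM in Vec+BBR and 13.9 ± 6.22 in shRNA+BBR (SD, n = 5), with edgeR adjusted p = 0.00843. The summed markers of hepatocytes, 9 genes found of 10 listed, ran from 92240 to 155500 CPM over the 20 libraries. Medians were 135700 CPM in Vec, 108000 in Vec+BBR, 125500 in shRNA and 122000 in shRNA+BBR. At an edgeR adjusted p under 0.05, 3 of the 9 were lower in Vec+BBR than in Vec, against 7.88% of all genes tested. In shRNA 2 were lower than in Vec, against 7.91% of all genes. From shRNA to shRNA+BBR 1 was higher and 2 were lower, against 8.37% and 7.28% of all genes. Between shRNA+BBR and Vec+BBR 0 differed, against 8.13% of all genes. Markers of adipocytes summed to at most 1.14 CPM and those of pancreas to at most 0.417 CPM. In bulk liver, fewer cells of a type and less RNA per cell cannot be told apart.

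All 10 genes were detected in every library and passed the filter on low counts. Compared per transcript length, as fragments per kilobase per 1000000 (FPKM), their mean levels over the 20 libraries ran from 796.6 for *Mup20* to 1.53 for *Socs2*. *Igf1* had 215.6 FPKM and *Ghr* 128.7 FPKM, followed by *Igfals* at 17.4, *Igfbp3* at 11.1, *Stat5b* at 8.97, *Mup21* at 7.48, *Cish* at 2.60 and *Bcl6* at 2.33 FPKM. *Igf1* had 3423 to 7314 expected counts per library and *Ghr* 3527 to 6632, while *Cish* had 53 to 304, *Bcl6* 43 to 471 and *Socs2* 23 to 128. The ranges of *Igf1* and *Ghr* did not overlap, nor did those of *Ghr* and *Igfals*, while every other pair of neighbours in this order overlapped. *Mup20* spanned 268.5 to 1811 FPKM and *Igf1* 162.7 to 272.4 FPKM.

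**Figure D1:**
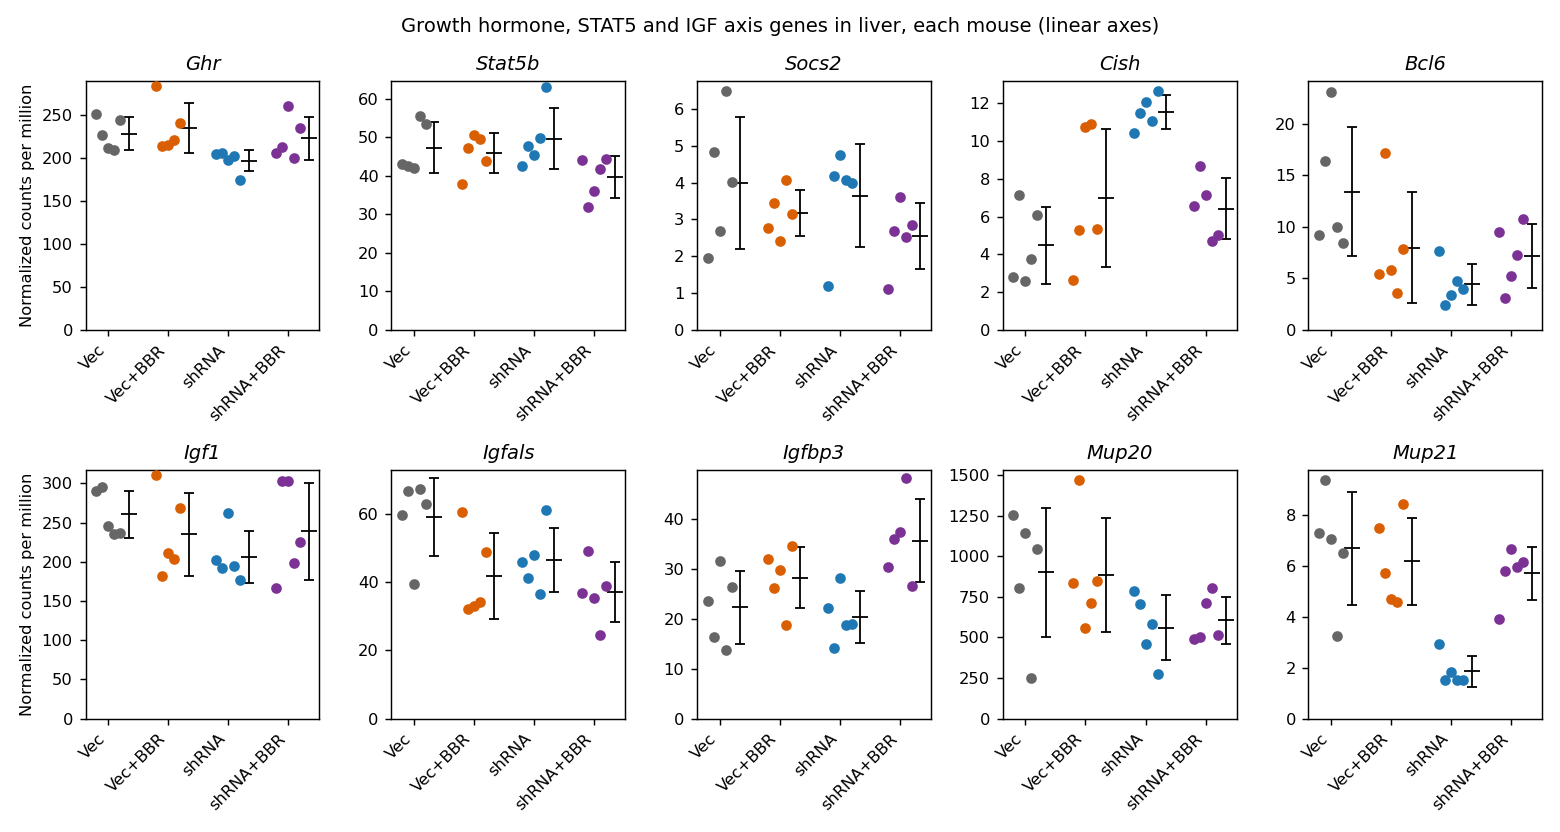
Normalized CPM (vertical axes, linear, from 0) of the 10 genes in each of the 20 mice, in the 4 groups along the horizontal axes. Each point is 1 mouse in the order of the replicate numbers, and the bar beside each group is its mean with 1 SD. *Cish* was highest in the shRNA group, at 10.4 to 12.7 CPM, where *Mup21* was lowest, at 1.5 to 2.92 CPM.

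Knockdown of PPARγ without BBR is described first. Of the 10 genes, *Cish* was higher and *Bcl6* and *Mup21* were lower in shRNA than in Vec (3 called), where 13.2% of the 12342 genes tested were called. The median log2 fold change of the 10 genes was −0.28, against −0.01 over all genes tested. In normalized CPM the ranges of the groups did not overlap for 4 of the 10, these 3 and *Ghr*, against 8.96% of all genes. In FPKM those of *Ghr* overlapped.

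*Cish* (ENSMUSG00000032578, chromosome 9 from 107296026 to 107302784, plus strand, GRCm38) encodes a SOCS family protein that is induced by STAT5 and damps cytokine and growth hormone receptor signals. In the 5 Vec mice it had 2.81, 7.13, 2.60, 3.75 and 6.08 CPM. The 5 shRNA mice had 10.4, 11.5, 12.1, 11.04 and 12.7 CPM. Every shRNA mouse lay above every Vec mouse, and the shRNA mice lay close together, with an SD of 0.877 CPM against 2.03 CPM in Vec. *Cish* rose by 1.38 on the log2 scale (standard error 0.31), a 2.60-fold increase with a 95% interval of 1.65 to 4.09, and edgeR's adjusted p was 0.00609. It was called in each of the 18 alternative analyses, with adjusted p between 0.000259 and 0.0205.

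With BBR, *Cish* lay between these levels. The Vec+BBR mice had 2.65, 5.28, 10.8, 10.9 and 5.32 CPM, so that 2 of them reached the level of the shRNA mice and 1 lay at the bottom of the Vec range. From Vec to Vec+BBR the log2 fold change was 0.65 (95% interval −0.01 to 1.31, edgeR adjusted p = 0.172), and it passed the threshold only when Vec+BBR replicate 1 was left out (0.85, adjusted p = 0.044). In shRNA+BBR mice *Cish* had 6.54, 8.70, 7.15, 4.70 and 5.04 CPM, all below the lowest shRNA mouse. That log2 fold change was −0.84 (95% interval −1.47 to −0.21), with an edgeR adjusted p of 0.0625, and adjusted p was 0.0358 by DESeq2, 0.0422 by limma-voom and 0.00576 when only these 2 groups were fitted. The difference between the 2 BBR effects was −1.49 on the log2 scale (standard error 0.44), with edgeR adjusted p = 0.107, adjusted p = 0.037 by DESeq2 and 0.0479 by edgeR without Vec+BBR replicate 1.

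*Bcl6* (ENSMUSG00000022508, chromosome 16 from 23965052 to 23988852, minus strand) encodes the transcriptional repressor described above and moved the other way. The Vec mice had 9.22, 16.4, 23.1, 9.94 and 8.38 CPM. The shRNA mice had 7.68, 2.40, 3.42, 4.69 and 3.96 CPM. The highest shRNA mouse lay just under the lowest Vec mouse. Its log2 fold change was −1.59 (standard error 0.41), which is 0.332 times the Vec level with a 95% interval of 0.184 to 0.599 (edgeR adjusted p = 0.0133, and between 0.00484 and 0.0458 over the 18 alternatives).

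*Bcl6* varied more between mice of 1 group than any of the other 9 genes, with a biological coefficient of variation of 0.431. In Vec+BBR it had 5.39, 17.2, 5.80, 3.62 and 7.81 CPM, and in shRNA+BBR 9.50, 3.07, 5.26, 7.21 and 10.8 CPM. Both ranges overlapped those of all other groups. The log2 fold change with BBR was −0.75 in Vec (95% interval −1.57 to 0.07, edgeR adjusted p = 0.21) and 0.68 under knockdown (−0.17 to 1.54, adjusted p = 0.249). Without Vec+BBR replicate 2, the mouse at 17.2 CPM, the change in Vec was −1.25 and passed the threshold (adjusted p = 0.0349). The difference between the BBR effects was 1.43 (standard error 0.57), with edgeR adjusted p = 0.196.

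Promoter windows of the 10 genes were searched for the sequence that STAT5 dimers recognise, TTCNNNGAA, which reads the same on both strands. Windows are printed for the 3 genes called with knockdown. Windows of 300 bases, from 250 before to 50 after a start of transcription, were taken from RefSeq (GRCm38.p6), which gave 13 windows for 8 of the 10 genes. The motif was found in 5 windows of 3 genes, *Cish*, *Bcl6* and *Igfals*, and in 8.30% of all 32851 windows. That share counts windows, and a gene can have more than 1. *Igfals*, called in no comparison with all mice, had matches 236 and 58 bases before different starts. Both *Cish* matches lay after the start, at bases 1 and 12, and the *Bcl6* window not printed held 1 match. The form with 4 free bases between TTC and GAA was found in none of the 13 and in 6.95% of all. Matches are in capitals in the sequences that follow, for *Cish* (chr9:107296409-107296708, plus strand), the *Bcl6* start with 3 matches (chr16:23981234-23981533, minus strand) and *Mup21* (chr4:62150792-62151091, minus strand), which has none in this window.
Cish: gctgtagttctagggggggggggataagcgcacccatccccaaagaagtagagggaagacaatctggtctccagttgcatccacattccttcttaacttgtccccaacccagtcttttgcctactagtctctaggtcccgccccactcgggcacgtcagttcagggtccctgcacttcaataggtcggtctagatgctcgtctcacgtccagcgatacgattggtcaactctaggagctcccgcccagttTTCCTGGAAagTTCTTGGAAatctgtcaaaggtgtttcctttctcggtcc
Bcl6: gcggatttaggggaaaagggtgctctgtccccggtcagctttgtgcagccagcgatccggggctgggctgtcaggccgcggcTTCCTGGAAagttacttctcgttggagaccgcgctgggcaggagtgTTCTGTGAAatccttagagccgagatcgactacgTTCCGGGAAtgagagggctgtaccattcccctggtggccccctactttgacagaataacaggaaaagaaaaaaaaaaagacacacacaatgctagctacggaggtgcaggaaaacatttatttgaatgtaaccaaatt
Mup21: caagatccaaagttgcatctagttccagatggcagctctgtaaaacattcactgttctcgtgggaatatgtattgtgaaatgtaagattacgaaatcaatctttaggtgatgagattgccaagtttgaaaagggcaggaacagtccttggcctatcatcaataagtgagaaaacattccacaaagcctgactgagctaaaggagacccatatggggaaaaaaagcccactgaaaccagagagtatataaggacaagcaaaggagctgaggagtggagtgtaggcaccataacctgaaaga
A match describes letters in these windows and was not tested for binding. Strand was not stated for the counting, and exons of *Cish* overlap genes on the opposite strand that have no value here. An exon of *Bcl6* overlaps Gm37419, also on the opposite strand, which was counted 0 times in all 20 libraries.

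*Mup21* (ENSMUSG00000066153, chromosome 4 from 62147932 to 62150863, minus strand) is a distant member of the family of major urinary proteins, small lipocalins that male liver secretes in bulk and that carry pheromones in urine. The Vec mice had 7.31, 9.38, 7.06, 3.25 and 6.50 CPM. The shRNA mice had 2.92, 1.51, 1.81, 1.53 and 1.5 CPM, all below the lowest Vec mouse. Its log2 fold change of −1.84 (standard error 0.26) is 0.279 times the Vec level (95% interval 0.192 to 0.404, edgeR adjusted p = 8.39e-05), and it was called in all 18 alternatives, with adjusted p at most 0.00187.

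BBR was without a detected change of *Mup21* in Vec mice and was followed by a higher level under knockdown. The Vec+BBR mice had 7.48, 5.73, 4.71, 4.597 and 8.43 CPM, within the range of the Vec mice (log2 fold change −0.11, 95% interval −0.60 to 0.38). The shRNA+BBR mice had 3.93, 5.80, 6.68, 5.98 and 6.16 CPM, and all lay above all shRNA mice. The change from shRNA to shRNA+BBR was 1.62 on the log2 scale (standard error 0.26), or 3.07-fold with a 95% interval of 2.12 to 4.45 (edgeR adjusted p = 0.00207, at most 0.00816 over the alternatives). Between Vec+BBR and shRNA+BBR the log2 fold change was −0.12 (95% interval −0.61 to 0.38, adjusted p = 0.806).

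*Mup21* was the 1 gene of the 10 called for a difference between the BBR effects, where 0.146% of the genes tested, 18 in all, were called. That difference was 1.73 on the log2 scale (standard error 0.35, edgeR adjusted p = 0.0473). It lay close to the threshold and was not called by limma-voom (adjusted p = 0.0747), nor in 14 of the 20 analyses that left out 1 library, in which adjusted p ran from 0.00917 without Vec replicate 4 to 0.106 without shRNA replicate 4. By DESeq2 the adjusted p was 0.000654. *Pparg* itself was also higher in shRNA+BBR than in shRNA (log2 fold change 1.28, edgeR adjusted p = 0.00773), and the part of this in the level of *Mup21* was not tested.

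**Figure D2:**
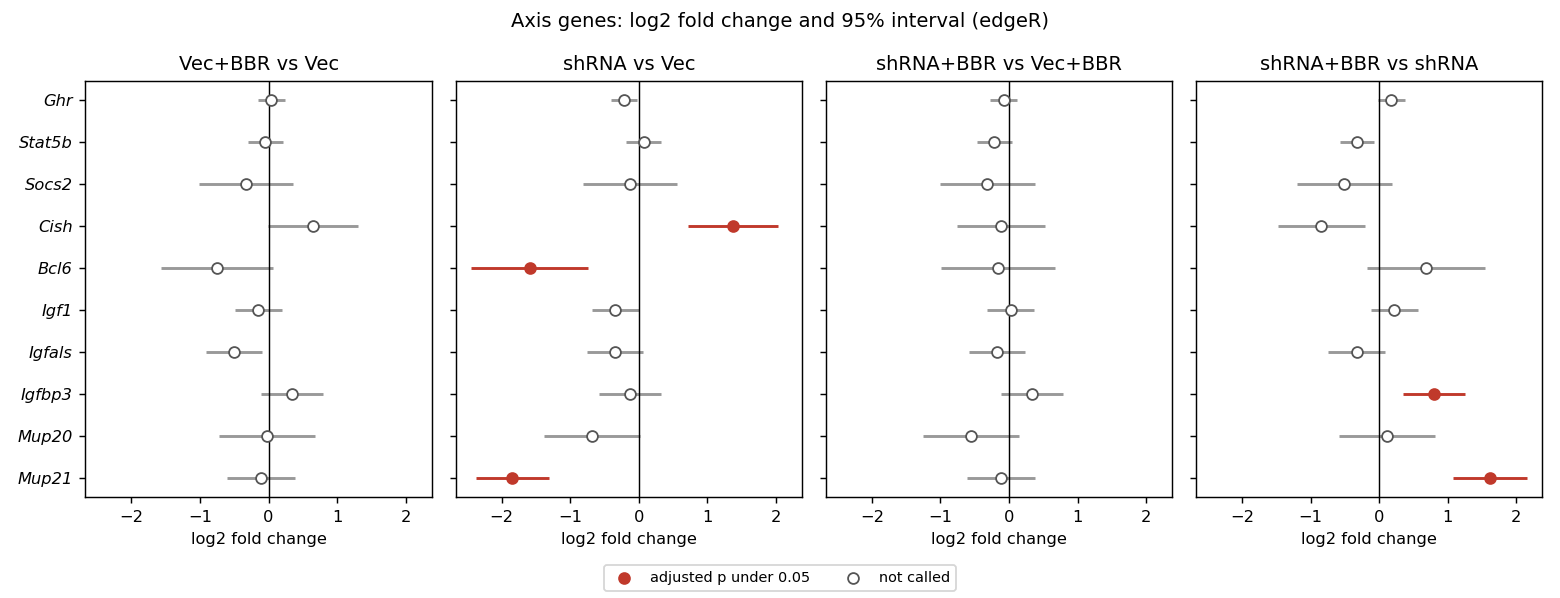
Log2 fold change (horizontal axes) of the 10 genes (rows) in the 4 comparisons, with 95% intervals from edgeR. Filled red points passed an adjusted p of 0.05, namely *Cish*, *Bcl6* and *Mup21* in shRNA vs Vec and *Igfbp3* and *Mup21* in shRNA+BBR vs shRNA.

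*Mup20* (ENSMUSG00000078672, chromosome 4 from 62050234 to 62054158, minus strand) encodes darcin, the male urinary pheromone that attracts females, and was not called in any comparison. The Vec mice had 1257, 803, 1147, 249.7 and 1049 CPM, and the shRNA mice 784, 707, 458, 581 and 274.5 CPM. Vec replicate 4 lay far below the other 4 Vec mice and was also the lowest Vec mouse for *Mup21*. The log2 fold change with knockdown was −0.68 (95% interval −1.38 to 0.02, edgeR adjusted p = 0.186), and without that mouse −0.92 (adjusted p = 0.0227). With BBR the levels were 836.6, 1474, 558, 713 and 846 CPM in Vec+BBR and 493, 501, 713, 808 and 513 CPM in shRNA+BBR. BBR gave log2 fold changes of −0.03 in Vec and 0.11 under knockdown, with 95% intervals of −0.72 to 0.67 and −0.59 to 0.81. From shRNA to shRNA+BBR, the 95% interval of *Mup20* did not reach the change of *Mup21*.

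The reads of *Mup* genes are hard to separate, since the family is a cluster on chromosome 4 in which many members are recent copies. Of the 22 *Mup* entries in the files, 19 were tested. The coding sequence of *Mup20* is a median of 90.5% identical to those of the other 21 entries, and that of *Mup21* 84.2%, with 94.8% to *Mup3* as its nearest. Of all windows of 100 bases in *Mup20* transcripts, 38.8% also occur in another gene, the pseudogene *Mup-ps19*, against 4.50% for *Mup21*, all of these in *Mup3*. At 150 bases the shares were 31.1% and 0%. The expected counts, however, were not whole in 5 of the 20 libraries for *Mup20* and in 18 for *Mup21*. The stretch of 60 coding bases that follows was chosen because *Mup20* and *Mup21* differ most there. Over the whole coding sequence these 2 genes are 87.55% identical, so the stretch is not typical of them. It shows them beside *Mup22*, the *Mup* entry with the most counts, and *Mup3*, with capitals where a base differs from *Mup20*.
Mup20: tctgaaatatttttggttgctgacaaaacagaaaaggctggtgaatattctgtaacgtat
Mup22: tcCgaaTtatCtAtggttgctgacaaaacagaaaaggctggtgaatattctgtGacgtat
Mup3: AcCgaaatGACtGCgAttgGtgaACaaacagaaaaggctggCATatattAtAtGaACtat
Mup21: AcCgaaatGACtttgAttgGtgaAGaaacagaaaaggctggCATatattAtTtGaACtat
In this stretch *Mup22* differs from *Mup20* at 5 bases, and *Mup21* differs from it at 17 but from *Mup3* at only 4. The expected counts of *Mup21* ran from 27 to 179 per library, while those of *Mup3* ran from 5559 to 38814, and whether *Mup3* reads were counted as *Mup21* was not tested. *Mup3* itself had log2 fold changes of −0.56 in shRNA vs Vec (edgeR adjusted p = 0.327), −1.56 in Vec+BBR vs Vec (adjusted p = 0.00767) and −0.51 in shRNA+BBR vs shRNA (adjusted p = 0.341). In the last of these the estimate for *Mup3* was below 0 and that for *Mup21* above it.

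The other *Mup* entries are given as measured, with the same limit. With BBR in Vec mice, *Mup1* (−1.99), *Mup3* (−1.56) and *Mup12* (−1.59) fell, 3 of 19, against 7.88% of all genes that fell, and the other 16 had adjusted p of 0.0721 or more, with the 1 positive estimate in *Mup8* (0.84). Knockdown without BBR lowered *Mup17* (−2.48, edgeR adjusted p = 0.0315) besides *Mup21*, 2 of 19 against 7.91% of all genes, and all 19 estimates were negative. Under BBR, *Mup8* (−1.63) and *Mup13* (−1.62) were lower with knockdown, 2 of 19 against 4.82% of all genes, while *Mup3* had an estimate of 0.50 (adjusted p = 0.424). Counts of *Mup8* and *Mup13* were low, at 1.98 to 32.0 and 5.62 to 51.1 expected counts per library. From shRNA to shRNA+BBR, *Mup1* (−1.67), *Mup2* (−1.74) and *Mup12* (−1.44) fell, 3 of 19 against 7.28% of all genes, and *Mup21* was the 1 entry that rose, against 8.37%. Counts of all entries summed, a sum made after the values had been seen, were 11083 ± 6108 CPM in Vec, 5290 ± 2497 in Vec+BBR, 6343 ± 3271 in shRNA and 2980 ± 879 in shRNA+BBR (SD, n = 5 each). In no comparison did that sum pass the edgeR threshold, with adjusted p between 0.0946 and 0.991.

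**Figure D3:**
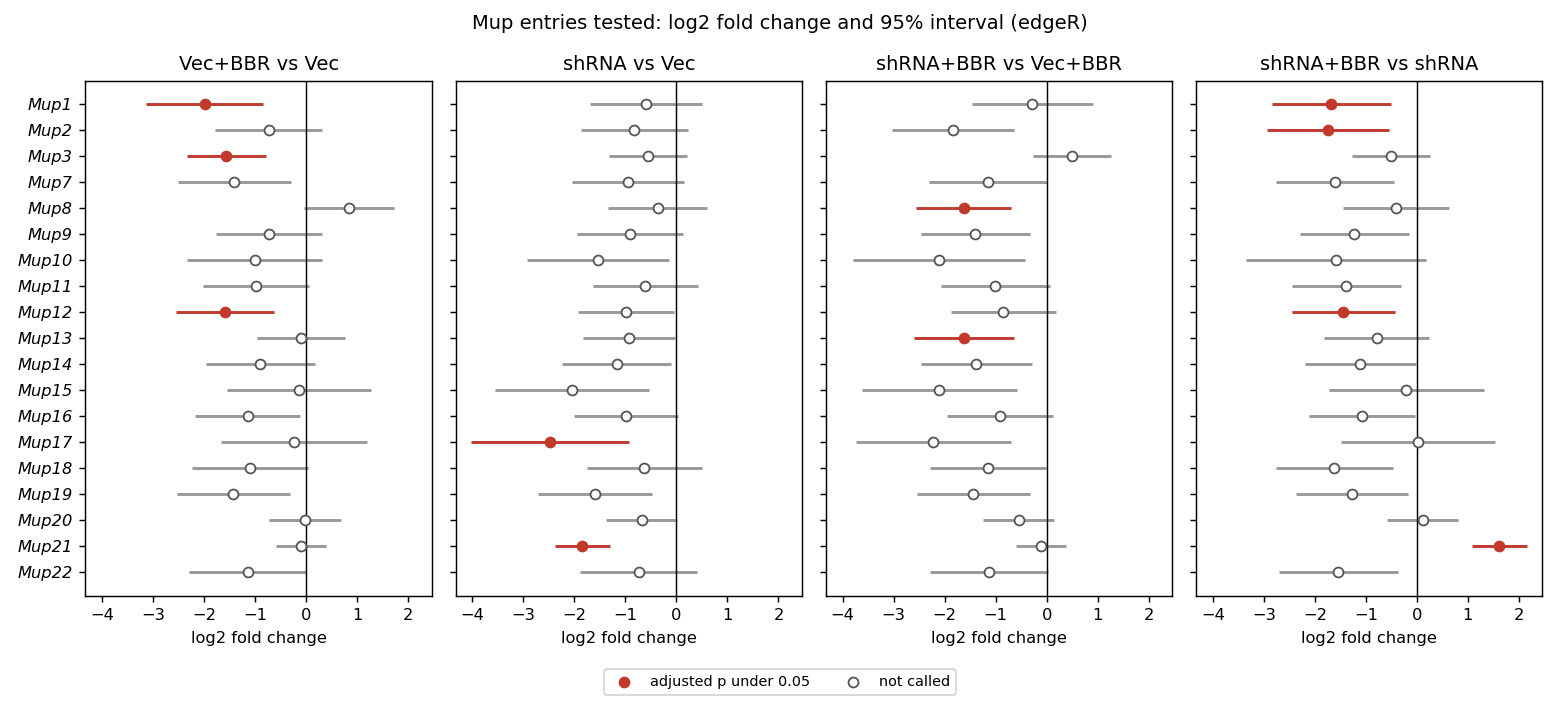
Log2 fold change (horizontal axes) with 95% intervals of the 19 *Mup* entries tested (rows) in 4 comparisons, with filled red points for an adjusted p under 0.05 in edgeR. *Mup21* has the narrowest intervals and is the 1 entry called higher, at 1.62 in shRNA+BBR vs shRNA, where *Mup1*, *Mup2* and *Mup12* were called lower.

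*Igfbp3* (ENSMUSG00000020427, chromosome 11 from 7206086 to 7213923, minus strand) encodes the main carrier of IGF-1 in blood, and in liver it is made largely outside hepatocytes. From shRNA to shRNA+BBR it rose. The shRNA mice had 22.2, 14.1, 28.1, 18.8 and 18.9 CPM, and the shRNA+BBR mice had 30.3, 35.97, 37.6, 48.2 and 26.6 CPM. The ranges overlapped through 1 mouse of each group. The log2 fold change was 0.81 (standard error 0.22), a 1.75-fold increase with a 95% interval of 1.28 to 2.39 (edgeR adjusted p = 0.0199). The call was lost without shRNA replicate 2 (adjusted p = 0.0505), shRNA+BBR replicate 3 (0.0526) or shRNA+BBR replicate 4 (0.0562). In this comparison 2 of the 10 genes, *Igfbp3* and *Mup21*, were called, where 15.7% of all genes were, and the groups did not overlap for 2, *Cish* and *Mup21*, against 11.4% of all genes.

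In the other groups *Igfbp3* had 23.6, 16.3, 31.6, 13.8 and 26.3 CPM (Vec) and 32.0, 26.2, 29.8, 18.8 and 34.6 CPM (Vec+BBR), with a log2 fold change of 0.34 (95% interval −0.11 to 0.79, edgeR adjusted p = 0.312). The interaction of BBR and knockdown was not called (0.47, 95% interval −0.17 to 1.10, adjusted p = 0.414). Markers of some other cells of the liver were also higher in shRNA+BBR than in shRNA. Among all genes, 8.37% were called higher and 7.28% lower in that comparison. Summed over 9 stellate cell markers the level was 235.9 to 310.8 CPM in shRNA and 310.3 to 442.5 CPM in shRNA+BBR, with 4 of 9 called higher. The 5 cholangiocyte markers ran from 25.9 to 34.4 and from 31.0 to 87.7 CPM, with 1 of 5 higher, and the 10 macrophage markers from 220.9 to 300.3 and from 271.7 to 390.5 CPM, with 3 of 10 higher. The 8 endothelial markers ran from 138.8 to 194.6 and from 135.7 to 189 CPM, with 1 higher and 2 lower. From Vec to Vec+BBR, where *Igfbp3* was not called, 5 of 9 stellate cell markers and 5 of 8 endothelial markers were called higher. Among all genes, 7.58% were called higher there and 7.88% lower. Of the cholangiocyte markers 1 of 5 was higher there, and of the 10 macrophage markers 1 was higher and 2 were lower. The part of these cells in the level of *Igfbp3* was not tested.

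*Igf1* (ENSMUSG00000020053, chromosome 10 from 87858265 to 87937042, plus strand), which encodes the circulating growth factor that mediates much of the action of growth hormone, was called in no comparison. It had 235.2 to 295.3 CPM in Vec (median 245.9), 181.6 to 310.1 in Vec+BBR (211.4), 177.2 to 262.5 in shRNA (194.6) and 165.9 to 303.1 in shRNA+BBR (median 225.0). Of the 5 shRNA mice 4 lay below the lowest Vec mouse, and the log2 fold change was −0.34 (95% interval −0.69 to 0.0022, edgeR adjusted p = 0.179). With BBR it was −0.15 (95% interval −0.49 to 0.19) in Vec and 0.22 (−0.13 to 0.56) under knockdown. The knockdown changes of *Cish*, *Bcl6* and *Mup21* were larger in size than any value inside these intervals.

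*Igfals* (ENSMUSG00000046070, chromosome 17 from 24865997 to 24882010, plus strand) encodes the acid-labile subunit, which holds IGF-1 and IGFBP3 in the large circulating complex. The Vec mice had 59.7, 66.9, 39.6, 67.3 and 62.8 CPM and the Vec+BBR mice 60.8, 32.2, 33.0, 34.2 and 48.8 CPM. Apart from 1 low Vec mouse and 1 high Vec+BBR mouse the groups were separate. The log2 fold change was −0.50 (standard error 0.20, 95% interval −0.91 to −0.10) with edgeR adjusted p = 0.0851, and it was called without Vec replicate 3 (−0.63, adjusted p = 0.0275) and without Vec+BBR replicate 1 (−0.69, adjusted p = 0.0193). *Igfals* ran from 36.5 to 61.2 CPM in shRNA and from 24.6 to 49.2 CPM in shRNA+BBR, a log2 fold change of −0.33 (95% interval −0.74 to 0.08, adjusted p = 0.242).

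*Ghr* (ENSMUSG00000055737, chromosome 15 from 3317760 to 3583492, minus strand), the receptor, was the steadiest of the 10 genes. It had 208.5 to 250.3 CPM in Vec, 213.5 to 283.5 in Vec+BBR, 174.5 to 205.3 in shRNA and 199.0 to 259.6 in shRNA+BBR. In normalized CPM all shRNA mice lay below all Vec mice, but the difference was small, with a log2 fold change of −0.21 (95% interval −0.41 to −0.02) and edgeR adjusted p = 0.135. Over the 18 alternatives the log2 fold change ran from −0.24 to −0.11. In the deposited FPKM the 2 groups overlapped, at 120.2 to 142.6 in Vec and 109.0 to 136.3 in shRNA. BBR gave 0.04 (95% interval −0.15 to 0.24) in Vec and 0.18 (−0.02 to 0.37) under knockdown.

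*Stat5b* (ENSMUSG00000020919, chromosome 11 from 100780731 to 100850724, minus strand), which encodes the main growth hormone-activated transcription factor of liver, ran from 31.9 to 63.1 CPM over all mice. Its log2 fold change from shRNA to shRNA+BBR was −0.33 (95% interval −0.58 to −0.08, edgeR adjusted p = 0.0658), and adjusted p was 0.0479 by DESeq2 and 0.0456 by edgeR without shRNA+BBR replicate 5. With knockdown alone it was 0.07 (95% interval −0.18 to 0.32). Of its windows of 100 bases 4.79% also occur in *Stat5a*, and the summed counts of both genes gave −0.25 from shRNA to shRNA+BBR (adjusted p = 0.131).

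*Socs2* (ENSMUSG00000020027, chromosome 10 from 95385362 to 95417180, minus strand), the other feedback inhibitor, ran from 1.95 to 6.49 CPM in Vec, 2.43 to 4.06 in Vec+BBR, 1.19 to 4.75 in shRNA and 1.12 to 3.60 in shRNA+BBR. No comparison was called, and the intervals were wide. The log2 fold change with knockdown was −0.13 (95% interval −0.81 to 0.55, edgeR adjusted p = 0.836), an interval that ends below the change of *Cish*.

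BBR without knockdown and knockdown under BBR called none of the 10 genes by edgeR. In Vec+BBR vs Vec, where 15.5% of all genes were called, 1 of the 10 had an unadjusted p under 0.05, *Igfals*, against 30.2% of all genes, and DESeq2 and limma-voom also called 0. The ranges of Vec and Vec+BBR overlapped for all 10, while for 8.94% of all genes they did not. In shRNA+BBR vs Vec+BBR, where 8.13% of all genes were called, 0 of the 10 had an unadjusted p under 0.05, against 24.7% of all genes, and DESeq2 and limma-voom called 0. These ranges too overlapped for all 10, while for 8.48% of all genes they did not. The largest estimates there were −0.55 for *Mup20* (95% interval −1.25 to 0.15) and 0.34 for *Igfbp3* (−0.11 to 0.79). Since the comparisons share groups of mice, their values stand side by side and are not independent of each other.

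Across the 20 mice, after the group means had been subtracted, 6 pairs of the genes were compared by a permutation test within groups, two-sided, with Benjamini-Hochberg adjustment over the 6. None passed. For *Mup20* and *Mup21* Pearson's r was 0.634 (permutation p = 0.0269, adjusted p = 0.146) and Spearman's rho 0.543 (permutation p = 0.0237, adjusted p = 0.142), and r was 0.358 without the 2 mice farthest from the median of *Mup20*. For *Igf1* and *Igfals* r was 0.508 (permutation p = 0.0485, adjusted p = 0.146) and rho 0.442 (permutation p = 0.0863), with r at 0.297 without the 2 farthest mice. The inhibitors *Cish* and *Socs2* gave r = 0.266 (permutation p = 0.182) and rho = 0.432 (permutation p = 0.0678), and *Bcl6* and *Cish* gave r = −0.337 (permutation p = 0.228) and rho = −0.383 (permutation p = 0.145). For *Cish* and *Igf1* r was −0.136 (permutation p = 0.615) and rho −0.084, and for *Socs2* and *Igf1* r was 0.199 (permutation p = 0.414) and rho 0.102.

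**Figure D4:**
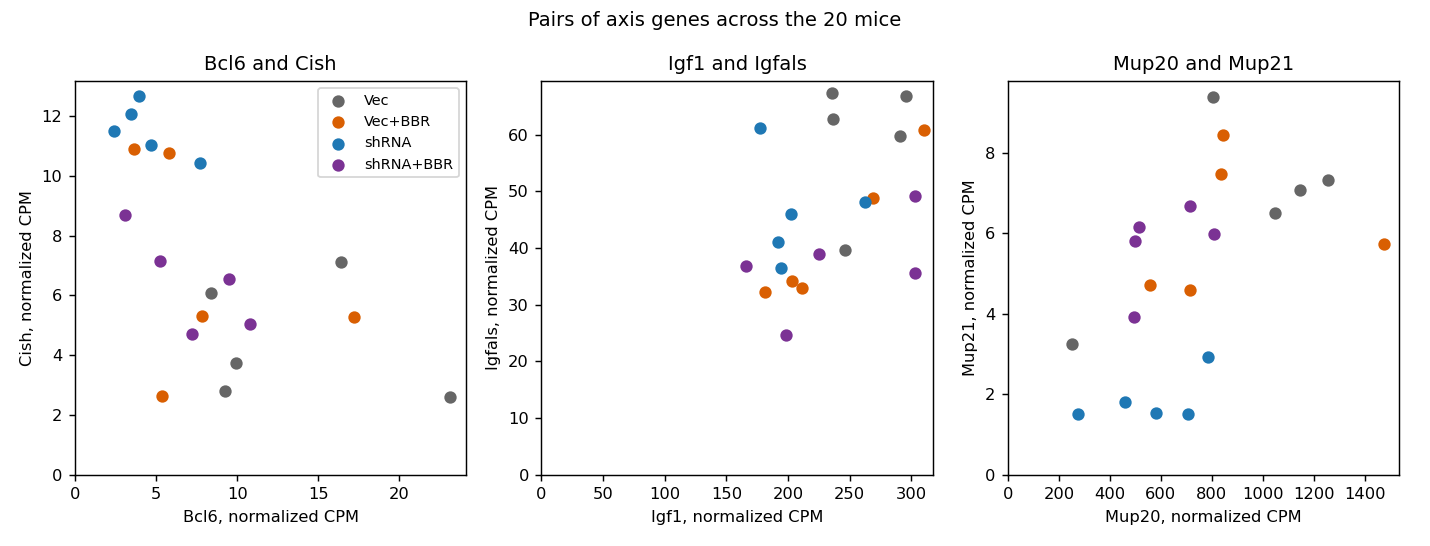
Normalized CPM of 3 pairs of genes in the 20 mice, with linear axes from 0 and 1 point per mouse coloured by group. The shRNA mice sit together at high *Cish* and low *Bcl6* in the left panel and below 3 CPM of *Mup21* in the right panel.

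Described by likeness alone, over the same 20 mice and the same libraries, the genes nearest to *Igf1* were Olfr1385 (r = 0.914), Maskbp3 (0.912), Eif3j1 (0.911), the gene listed without a symbol as ENSMUSG00000064357 (0.91) and Dcun1d1 (0.905). The identifier is that of mt-Atp6, a mitochondrial gene. In Vec+BBR, shRNA and shRNA+BBR the mouse with the most *Igf1* also had the highest mitochondrial share, at 13.8%, 12.3% and 16.2%. In Vec the mouse with the most *Igf1*, replicate 2, had 9.38%, while the share reached 10.8% in replicate 3. The part of this share in the level of *Igf1* was not tested. The genes nearest to *Mup20* were Gnai1 (r = 0.817), Nhp2 (0.814), Brd9 (0.81), Lrat (0.797) and Sprr1a (0.794).

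Of the other components of growth hormone receptor signalling 13 were tested of 14 listed. With BBR in Vec, *Prlr* and *Socs6* fell, 2 of 13 against 7.88% of all genes, and 0 rose, against 7.58%, with a median log2 fold change of 0.03. *Prlr*, the prolactin receptor, which also signals through STAT5, went from 144.8 ± 36.5 CPM in Vec to 84.0 ± 14.4 in Vec+BBR (SD, n = 5; log2 fold change −0.79, edgeR adjusted p = 0.00168). With knockdown *Prlr* (−0.55), *Sirpa* (−0.58), a docking protein for phosphatases that is abundant on macrophages, and *Ptpn6* (−0.29), a phosphatase of blood cells, fell, 3 of 13 against 7.91% of all genes. From shRNA to shRNA+BBR *Sirpa* (0.74) and *Ptpn6* (0.27) rose and *Prlr* fell further (−0.60, edgeR adjusted p = 0.0144), 2 higher and 1 lower of 13, where 8.37% of all genes were higher and 7.28% lower. The macrophage marker sum had a median of 371.1 CPM in Vec, 331.5 in Vec+BBR, 290.2 in shRNA and 308.8 in shRNA+BBR. Its range in Vec, 173.5 to 426.5 CPM, spanned that in shRNA, 220.9 to 300.3 CPM. In Vec+BBR, where this median was below that of Vec, mean *Sirpa* was 19.3 CPM, against 14.9 in Vec. Mean *Ptpn6* was 25.8 CPM in Vec+BBR, against 22.7 in Vec. The part of macrophages in the levels of *Sirpa* and *Ptpn6* was not tested. Knockdown under BBR called 0 of the 13 by edgeR, against 8.13% of all genes, with 3 at an unadjusted p under 0.05, against 24.7%.

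Of the other genes of the IGF system 13 were tested of 15. Called were 3 of the 13 in Vec+BBR vs Vec, 1 in shRNA vs Vec, 2 in shRNA+BBR vs Vec+BBR and 3 in shRNA+BBR vs shRNA, against 15.5%, 13.2%, 8.13% and 15.7% of all genes. *Igfbp2*, which is made by hepatocytes and is suppressed by insulin, had 45.5 ± 29.0 CPM in Vec, 6.44 ± 2.71 in Vec+BBR, 78.7 ± 22.8 in shRNA and 26.3 ± 14.1 in shRNA+BBR (SD, n = 5 each). It fell with BBR in both backgrounds, by 2.81 on the log2 scale in Vec (edgeR adjusted p = 0.00087) and by 1.58 under knockdown (adjusted p = 0.0232). Under BBR it was 4.07-fold higher with knockdown (95% interval 2.06 to 8.03, adjusted p = 0.0123). *Igfbp4*, the binding protein with the most counts, fell with BBR in Vec (−0.43) and with knockdown (−0.48), and *Igfbp5* fell with BBR in both backgrounds (−0.91 and −0.78). *Igfbp7* rose from shRNA to shRNA+BBR (0.63) beside the stellate cell markers given above, and *Igf2r* was lower with knockdown under BBR (−0.37). The median over the 13 genes lay between −0.16 and 0.09 in the 4 comparisons.

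Of 15 regulators of sex-biased liver genes, all tested, *Onecut1*, a hepatocyte transcription factor that is induced by growth hormone, rose with knockdown, from 3.99 ± 2.15 to 9.66 ± 2.63 CPM (SD, n = 5; log2 fold change 1.27, edgeR adjusted p = 0.00634), the 1 call of 15 there, against 13.2% of all genes. It fell from there to 5.26 ± 1.05 CPM in shRNA+BBR (−0.88, adjusted p = 0.0419). *Ezh1*, a histone methyltransferase, fell with knockdown under BBR (−0.45) and from shRNA to shRNA+BBR (−0.44), and *Foxa3* was higher (0.67) in shRNA+BBR than in shRNA. With BBR in Vec 0 of the 15 were called by edgeR, against 15.5% of all genes, with 2 at an unadjusted p under 0.05, against 30.2%. Under BBR, knockdown called 1 of the 15 (8.13% of all genes), and from shRNA to shRNA+BBR 4 were called (15.7% of all genes).

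Of 13 male-biased genes that are held up by pulsatile growth hormone 12 were tested. *Hsd3b5*, a strictly male steroid dehydrogenase of mouse liver, was left out by the filter, with at most 0.251 CPM in any Vec mouse. Of the 12, 5 fell with knockdown and 0 rose, where 7.91% of all genes fell and 5.28% rose. *Cyp4a12a*, a fatty acid hydroxylase, had 1001 ± 395 CPM in Vec and 318.1 ± 78.02 in shRNA (SD, n = 5; log2 fold change −1.65, edgeR adjusted p = 0.000794). *Cyp4a12b* (−1.48) and *Elovl3*, a fatty acid elongase (−1.09), fell as well. From shRNA to shRNA+BBR these 3 rose, *Cyp4a12a* to 823.8 ± 212.1 CPM (1.37, adjusted p = 0.00682), *Cyp4a12b* by 1.62 and *Elovl3* by 0.95, as *Mup21* did, while *Cyp7b1* (−0.66) and *Ugt2b1* (−0.55) fell, in all 4 higher and 3 lower of 12, where 8.37% of all genes rose and 7.28% fell. With BBR in Vec 4 fell, *Cyp7b1* (−1.34) and *Ugt2b1* (−0.97) among them, and 0 rose, where 7.88% of all genes fell and 7.58% rose. Under BBR, *Ugt2b38* (−0.48) was the 1 gene of 12 called with knockdown, against 8.13% of all genes.

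Female-biased genes showed the opposite sign with knockdown. There 6 of 23 tested rose and 0 fell, where 5.28% of all genes rose and 7.91% fell. *A1bg* (1.80), *Cyp2b10* (0.87) and *Cyp17a1* (0.79) were among them, and the median log2 fold change was 0.74. BBR in Vec, where 7.58% of all genes rose and 7.88% fell, lowered 7, *Cyp3a41a* (−6.01) and *Sult2a1* (−3.70) among them, and raised 2, *Abcd2* (1.52) and *Slc22a27* (1.00). Under BBR, knockdown, which raised 3.31% and lowered 4.82% of all genes, raised 7, with *Cyp3a41a* (4.76), *Sult2a1* (2.999) and *Sult2a2* (2.88) leading, and lowered 2, *Abcd2* (−0.72) and *Cyp2b9* (−0.56). From shRNA to shRNA+BBR, where 8.37% of all genes rose and 7.28% fell, 10 fell and 0 rose, with *Sult2a1* (−2.25) among those that fell. Of the genes of the 6 lists that are not among the 10, the difference between the BBR effects called 0 by edgeR, 5 by DESeq2, and the number with an unadjusted p under 0.05 was 17 of 93, against 18.5% of all genes.

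Vec replicate 4 was the lowest Vec mouse for *Mup20* and *Mup21* and for 5 of the 12 male-biased genes tested. It had 312.9 CPM of *Cyp4a12a* and 6.69 CPM of *Elovl3*, where the other 4 Vec mice had at least 1049 and 25.7 CPM. It was not low for all of the 12, and was the highest Vec mouse for *Selenbp2* (12.4 CPM) and *Ugt2b38* (27.6 CPM). Without that mouse the genes of the 6 lists called in shRNA vs Vec numbered 26, against 17 with it, and the calls among all genes tested rose from 1628 to 2284.

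**Figure D5:**
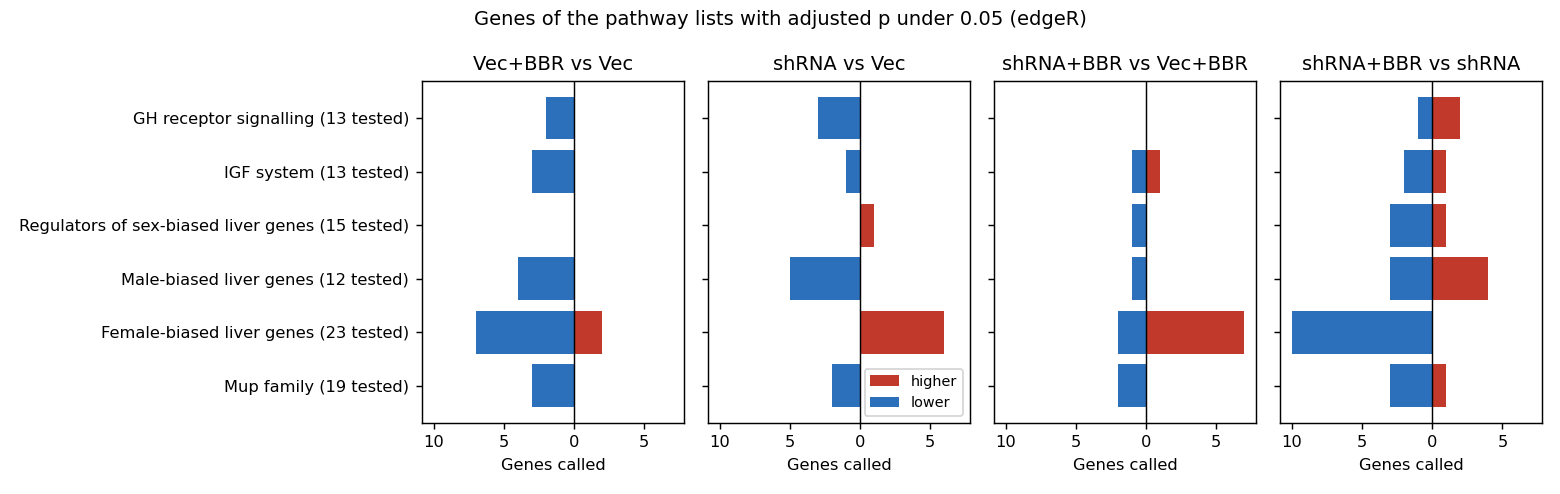
Number of genes of 6 lists called higher (red, to the right) or lower (blue, to the left) by edgeR at an adjusted p under 0.05 in each comparison, with the number tested beside each list. Female-biased genes were called higher in shRNA vs Vec (6 of 23) and lower in shRNA+BBR vs shRNA (10 of 23), and male-biased genes were called lower in shRNA vs Vec (5 of 12).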

How the data were processed

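RNA of 20 livers was enriched with oligo(dT), built into libraries with a NEBNext Ultra kit and sequenced on an Illumina instrument. The deposited files hold 2 values per gene. The deposited expected counts are the authors' estimates, not normalized and not all whole. The authors' deposited FPKM, scaled for length and depth, served here to compare levels between genes and, for *Ghr*, the ranges of Vec and shRNA. The build is mm10 per the labels, and the aligner, the counter and the annotation are not given in the sources used here. How reads of copied genes were divided among them is not given, and the counts of *Mup* genes, many of them not whole, depend on that step.

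Counts were rounded, filtered with filterByExpr (minimum count 10, minimum total 15) and scaled by TMM (factors 0.873 to 1.14), and 12342 genes were tested with edgeR 4.0.16 (R 4.3.3) by the quasi-likelihood test with 4 group means. P-values were adjusted by Benjamini-Hochberg over all genes tested, with a threshold of 0.05. The 5 comparisons were Vec+BBR vs Vec, shRNA vs Vec, shRNA+BBR vs Vec+BBR, shRNA+BBR vs shRNA, and the difference of the last and the first BBR effects. Levels are normalized CPM, and a count of 3 corresponds to 0.121 to 0.193 CPM. P-values rest on the counts and on the spread between mice within groups, 5 mice each, estimated over the 4 groups together. The p-value of 2 groups thus also draws on the spread in the other groups. Of the 10 genes, *Socs2*, *Mup21*, *Bcl6* and *Cish* had the fewest counts. The fits and the pair tests (100000 resamples, scipy and numpy) were tested on simulated data. DESeq2 1.42.0, limma 3.58.1 (voom), other scalings and filters, a replicate term and leaving out each library were alternatives.

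The 10 genes, the 6 lists and the markers were chosen with earlier results of these data known. Named were all 10 genes, up to 3 genes per list, comparison and direction with the largest change among the genes called that averaged 50 counts or more, and all *Mup* entries tested. Some genes that this rule names are not reported here. *Hsd3b5*, the sums over *Mup* entries and over *Stat5a* and *Stat5b*, and the values of Vec replicate 4 were added after the data had been seen. Gene positions are those of GENCODE M21 (GRCm38), the same assembly as mm10, and promoters are from RefSeq. No 2 libraries of a group were duplicates (lowest chi-square per gene over 40 pairs, 15.1).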

Additional observations from a re-analysis of the deposited data

Results flagged for a closer look

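Of 40 sets of 5 mice examined, 10 genes in 4 groups, 4 held a mouse set apart from the other 4 by Dixon's test, where chance flags about 1 in 20. *Ghr* was 174.5 CPM in shRNA replicate 5, against 197.8 to 205.3 CPM in the other shRNA mice. *Socs2* was 1.19 CPM in shRNA replicate 1, against 4.00 to 4.75 CPM. *Igfals* was 39.6 CPM in Vec replicate 3, against 59.7 to 67.3 CPM. *Mup21* was 2.92 CPM in shRNA replicate 1, against 1.5 to 1.81 CPM, which is still below the lowest Vec mouse at 3.25 CPM.

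The effect of BBR on *Mup21* differed between mice with and without knockdown with a log2 interaction of 1.73 (adjusted p = 0.0473 in edgeR, and from 0.000654 to 0.106 over its 27 alternatives). All 5 shRNA+BBR mice lay above all 5 shRNA mice, while Vec and Vec+BBR overlapped.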

How the results depend on the processing

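The 5 calls of single genes in the 4 comparisons of groups kept their direction in every alternative run, and those of *Cish*, *Bcl6* and *Mup21* kept their side of the threshold in all 18 for each. Over all 10 genes and 5 comparisons, 920 of 990 alternative values kept direction and side, and 39 changed sign, all of genes not called. The number of the 10 genes called rose to 4 in shRNA+BBR vs shRNA with DESeq2. For the difference of the BBR effects it was 2 with DESeq2 and 0 with limma-voom and with a replicate block. In that difference the genes of the 6 lists called numbered 1 with total counts only and with no filter on low counts, 5 with DESeq2 and 2 with the replicate block. Fitted on the 2 groups alone, shRNA vs Vec called 11 genes of the lists. Across all genes the difference of the BBR effects called 18 in edgeR, 338 in DESeq2 and 11 in limma-voom, and the cause was not tested.

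Leaving out 1 mouse gave 0 to 2 of the 10 genes called in Vec+BBR vs Vec, 1 to 3 in shRNA+BBR vs shRNA and 0 to 2 in the difference of the BBR effects. Genes of the lists called ran from 10 to 26 in shRNA vs Vec, from 8 to 13 in shRNA+BBR vs Vec+BBR, from 13 to 34 in shRNA+BBR vs shRNA and from 0 to 3 in the difference, against 17, 15, 30 and 0 with all mice.

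Estimates near 0 changed sign. With total counts only these were *Stat5b* (0.088), *Mup20* (0.14) and *Mup21* (0.030) in Vec+BBR vs Vec, *Igf1* (−0.0125) in shRNA+BBR vs Vec+BBR, and *Ghr* (−0.0047) and *Mup20* (−0.042) in the difference. With limma-voom they were *Mup20* (0.091) in Vec+BBR vs Vec and *Cish* (0.047) in shRNA+BBR vs Vec+BBR. Without the 2 mice farthest from the median, r became 0.181 for *Cish* and *Igf1* and −0.022 for *Socs2* and *Igf1*. Without subtraction of group means, mice were shuffled across all 4 groups, so r and p then include the differences between groups. In that setting r was −0.642 for *Bcl6* and *Cish* (permutation test, adjusted p = 0.0149) and 0.562 for *Mup20* and *Mup21* (adjusted p = 0.0287).

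Over the fits without 1 mouse, log2 fold changes with a change of sign ran, in Vec+BBR vs Vec, from −0.046 to 0.072 for *Ghr*, −0.094 to 0.018 for *Stat5b*, −0.29 to 0.12 for *Mup20* and −0.28 to 0.035 for *Mup21*. In shRNA vs Vec they ran from −0.029 to 0.13 for *Stat5b*, −0.31 to 0.12 for *Socs2* and −0.27 to 0.029 for *Igfbp3*. In shRNA+BBR vs Vec+BBR they ran from −0.13 to 0.017 for *Ghr*, −0.31 to 0.10 for *Cish*, −0.35 to 0.35 for *Bcl6*, −0.062 to 0.16 for *Igf1*, −0.29 to 0.020 for *Igfals* and −0.21 to 0.018 for *Mup21*. In shRNA+BBR vs shRNA *Mup20* ran from −0.064 to 0.26, and in the difference *Socs2* ran from −0.44 to 0.0070 and *Mup20* from −0.039 to 0.41.

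Mice with the same replicate number deviated together, with a correlation over 0.1, in 1 of 5 numbers between Vec and Vec+BBR, 0 of 5 for both knockdown comparisons and 3 of 5 between shRNA and shRNA+BBR, so the numbers were not taken as a pairing. Of the 10 mice of each comparison, 2, 0, 1 and 5 correlated best with the mouse of their own number in Vec+BBR vs Vec, shRNA vs Vec, shRNA+BBR vs Vec+BBR and shRNA+BBR vs shRNA. With a replicate block, genes called among all tested numbered 1747, 1495, 940 and 1819 in these, against 1908, 1628, 1004 and 1932. The block changed no call of the 10 genes there, and the interaction of *Mup21* was 1.74 (edgeR adjusted p = 0.0503). Counts were lowest for *Socs2*, *Mup21*, *Cish* and *Bcl6*, with as few as 23, 27, 53 and 43 counts in a library.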
